A study of Rattus norvegicus with 12 samples.

Results

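Acta2, Actg2, Csrp1 and Des are genes of the contractile apparatus of smooth muscle. Their RNA was followed in NRK cells, a rat kidney line labelled as epithelial and in places called fibroblastic by the study. These genes are 4 of the 20842 genes of a count table. They were taken as the smooth muscle genes named in the lists of changed genes published with the study, and were matched to the table by symbol and Ensembl identifier (ENSRNOG00000058039, ENSRNOG00000029401, ENSRNOG00000008937 and ENSRNOG00000019810, in that order). All 4 had been listed as changed between VAMP7KO and WT, and Des also between ATG5KO and WT. The members were thus selected on their fold changes in those contrasts, which are given as a description, with no test.

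RNA-seq was run on WT, VAMP7KO and ATG5KO NRK cells, with 4 replicates of each genotype, all kept in growth medium with no further treatment. The knockouts were made with Cas9 and guide RNAs on a plasmid that also encodes GFP, and single GFP-positive cells were sorted into wells, so that a knockout line grew from 1 cell. How many lines of each genotype were sequenced is not stated in the sources used here, and a difference between genotypes cannot be told apart from a difference between such lines. VAMP7 is a vesicle SNARE of secretory and lysosomal membranes, and ATG5 is needed to attach LC3 to autophagosome membranes. The question was how loss of each changes the transcriptome.

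The libraries held 21090858 to 31525111 counts. Levels are CPM, read counts scaled to the library total, after TMM normalization, with the SD over 4 replicates, and 3 counts, taken as the floor, stood for 0.0952 to 0.142 CPM. The targeted gene, Vamp7, stood at 111.1 ± 3.26 CPM in WT, 46.2 ± 5.17 CPM in VAMP7KO and 128.2 ± 2.15 CPM in ATG5KO (SD, n = 4), and the identifier of Atg5 was not known, so that its level was not analysed here. Replicates 1 and 2 stood apart from replicates 3 and 4 in every genotype. In WT, 61.9% of the 13141 genes tested differed between these sets of replicates, against 56.1% in VAMP7KO and 52.1% in ATG5KO. The sources used here do not say what separates the sets, and the results of the 4 members are therefore also given by set. The p-values measure the spread between these libraries only. Those within or between sets rest on 2 libraries per genotype and set, which were closer to each other than to the other set.

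Acta2 encodes smooth muscle α-actin, the main actin of vascular smooth muscle and the usual marker of myofibroblasts. Actg2 encodes the γ-actin of visceral smooth muscle, and both actins form the thin filaments on which myosin pulls. Csrp1 encodes a LIM domain protein that sits on actin filaments and binds α-actinin and zyxin, and Des encodes desmin, the intermediate filament protein that ties dense bodies or Z-discs to each other in all muscle types. In smooth muscle such genes are switched on by serum response factor (SRF) together with myocardin or the myocardin-related factors, which respond to actin assembly and to TGF-β, and SRF binds the CArG box.

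The 250 bases before the RefSeq start of a gene are shown for Acta2, Csrp1 and Des, because the CArG box is the element through which this gene class is known to be read. The windows come from GRCr8 (RefSeq), which is not the build the reads were mapped to. All 4 symbols were matched, but the window of Actg2 (chr4:117594040-117594289, minus strand) belongs to a start inside the gene and is not shown. Capitals mark a CArG box, CCNNNNNNGG with at least 5 of the 6 middle bases A or T, and GGAATG, the core of the MCAT element bound by TEAD factors. Both strands were searched, and the motifs did not overlap.
Acta2, chr1:241172504-241172753, minus strand: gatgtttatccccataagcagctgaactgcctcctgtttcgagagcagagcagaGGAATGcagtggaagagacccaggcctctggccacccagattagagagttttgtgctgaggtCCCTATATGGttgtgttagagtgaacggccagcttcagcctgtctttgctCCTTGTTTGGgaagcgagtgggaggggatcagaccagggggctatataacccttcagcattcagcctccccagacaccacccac
Csrp1, chr13:49709678-49709927, plus strand: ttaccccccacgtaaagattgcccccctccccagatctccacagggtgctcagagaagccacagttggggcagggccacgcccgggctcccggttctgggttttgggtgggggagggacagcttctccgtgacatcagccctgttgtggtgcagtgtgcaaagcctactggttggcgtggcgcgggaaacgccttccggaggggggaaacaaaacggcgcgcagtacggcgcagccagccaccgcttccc
Des, chr9:84299376-84299625, plus strand: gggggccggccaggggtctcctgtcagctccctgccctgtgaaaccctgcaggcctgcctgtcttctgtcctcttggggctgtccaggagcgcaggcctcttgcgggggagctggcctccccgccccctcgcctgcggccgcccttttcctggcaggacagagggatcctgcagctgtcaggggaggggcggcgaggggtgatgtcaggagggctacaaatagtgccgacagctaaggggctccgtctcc
The Acta2 window held 2 such boxes, CCCTATATGG from 134 to 125 bases before the start and CCTTGTTTGG from 84 to 75 bases before it, and GGAATG from 196 to 191 bases before it. These letters were found in neither the Csrp1 nor the Des window. Of 33469 RefSeq windows of the same length, 8.08% held at least 1 such CArG box, 0.693% held at least 2, and 12.1% held GGAATG on either strand. A match is a description of the sequence, and no measurement of binding was made.

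The smooth muscle actins were the members that differed most in VAMP7KO, and in ATG5KO both stood inside the range of the WT libraries. Acta2 stood at 5.37, 7.0, 13.2 and 12.0 CPM in WT replicates 1 to 4. In VAMP7KO it stood at 47.6, 45.1, 94.1 and 109.4 CPM. In ATG5KO it stood at 11.5, 9.85, 7.40 and 6.22 CPM. All 4 VAMP7KO libraries were above every WT and every ATG5KO library, while the ATG5KO values lay inside the WT range. Of all genes tested, 15.5% did not overlap between VAMP7KO and WT and 28.4% did not between VAMP7KO and ATG5KO. The mean was 74.0 ± 32.6 CPM in VAMP7KO against 9.39 ± 3.79 CPM in WT and 8.74 ± 2.37 CPM in ATG5KO (SD, n = 4), which is 7.88-fold the WT level. The fitted log2 fold change of VAMP7KO over WT was 2.96 (standard error 0.339).

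The ratio of VAMP7KO to WT for Acta2 was nearly equal in both sets, 7.50-fold in replicates 1 and 2 and 8.07-fold in replicates 3 and 4. The difference of these effects was 0.10 on the log2 scale (adjusted p = 0.757, edgeR quasi-likelihood, Benjamini-Hochberg). Over all genes tested, 16.5% had a VAMP7KO effect that differed between the sets. The level itself moved with the set. Acta2 was higher in replicates 3 and 4 by 1.03 on the log2 scale in WT and by 1.13 in VAMP7KO (adjusted p = 5.24e-06 and 1.2e-07, edgeR quasi-likelihood, Benjamini-Hochberg), but lower there by a log2 difference of -0.63 in ATG5KO (adjusted p = 0.0015).

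The comparison of ATG5KO with WT did not choose Acta2, nor Actg2 and Csrp1 below. Acta2 was tested, with the WT libraries shared with the VAMP7KO comparison that chose these genes. Over all 12 libraries the log2 fold change was 0.02 (standard error 0.342, 95% confidence interval -0.74 to 0.79, adjusted p = 0.964, edgeR quasi-likelihood, Benjamini-Hochberg), where 46.3% of all genes tested were called. This value averages opposite differences. In replicates 1 and 2 both ATG5KO libraries were above both WT libraries, a 1.72-fold ratio, and in replicates 3 and 4 both were below, a ratio of 0.541. Fitted alone, replicates 1 and 2 gave 0.76 on the log2 scale (adjusted p = 0.00114), and replicates 3 and 4 gave -0.88 (adjusted p = 1.25e-07), by the same edgeR test. The ATG5KO effect on Acta2 differed between the sets by -1.66 on the log2 scale (adjusted p = 9.22e-06 for the interaction, standard error 0.201), where 28.9% of all genes tested had a different effect.

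Actg2 was a low gene, and its counts are given with its levels. WT replicates 1 to 4 had 6, 4, 28 and 32 counts, or 0.203, 0.139, 0.920 and 1.14 CPM. VAMP7KO had 25, 21, 290 and 363 counts, or 0.835, 0.950, 10.5 and 14.9 CPM. ATG5KO had 7, 10, 15 and 14 counts, or 0.325, 0.347, 0.539 and 0.645 CPM. VAMP7KO was above WT in each of the 4 pairs of equal replicate number and within each set. The ranges over 4 replicates overlapped, since VAMP7KO replicates 1 and 2 lay below or near the levels of WT replicates 3 and 4. The mean was 6.80 ± 7.06 CPM in VAMP7KO, 0.601 ± 0.505 CPM in WT and 0.464 ± 0.154 CPM in ATG5KO (SD, n = 4), and the fitted log2 fold change of VAMP7KO over WT was 3.20 (standard error 0.481).

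VAMP7KO over WT was a fold of 5.23 for Actg2 in replicates 1 and 2 and 12.3 in replicates 3 and 4. The difference of the effects, 1.28 on the log2 scale, did not pass the test (adjusted p = 0.189, edgeR quasi-likelihood, Benjamini-Hochberg). Actg2 was higher in replicates 3 and 4 by 2.56 on the log2 scale in WT (adjusted p = 7.69e-05) and by 3.83 in VAMP7KO (adjusted p = 9.67e-10), by the same edgeR test, and the difference of 0.79 in ATG5KO did not pass it (adjusted p = 0.159). Between ATG5KO and WT, the log2 fold change of Actg2 was -0.12 (95% confidence interval -1.41 to 1.18, adjusted p = 0.888, edgeR quasi-likelihood, Benjamini-Hochberg). Its ratio was 1.97 in replicates 1 and 2, while replicates 3 and 4 gave 0.574. The ATG5KO effect changed between the sets by -1.77 (adjusted p = 0.0584 from the same test, and 0.0486 with the replicate block).

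**Figure D1:**
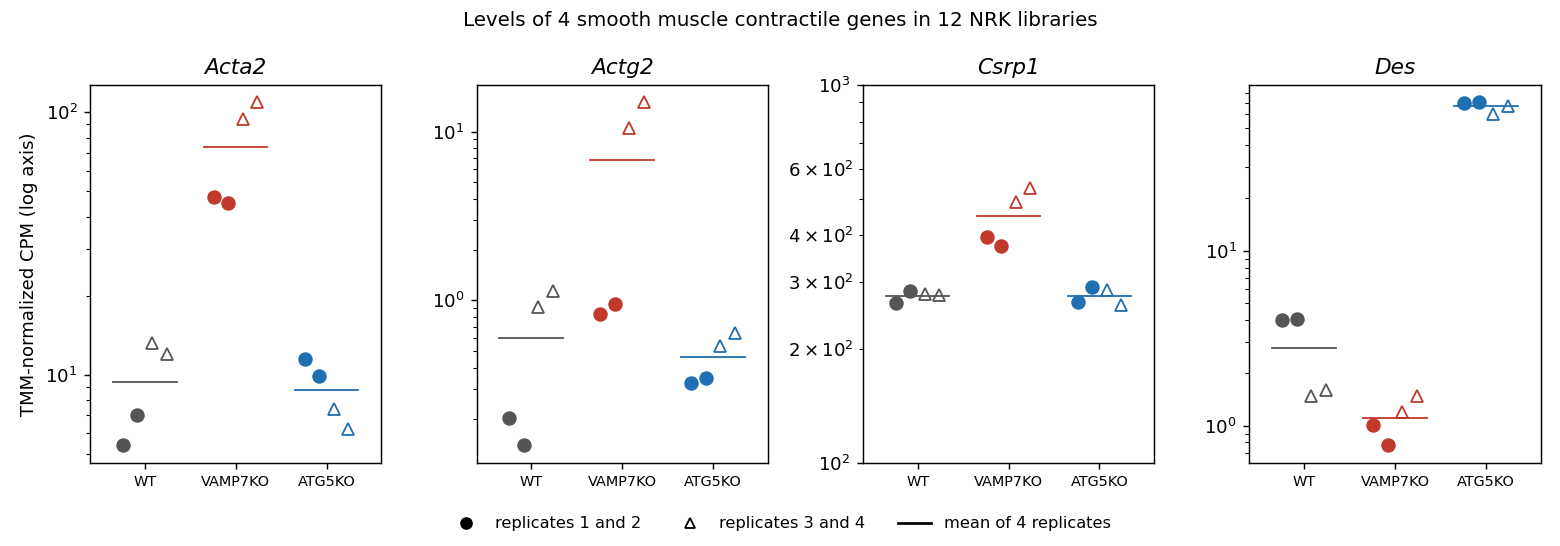
TMM-normalized CPM (log axis) of Acta2, Actg2, Csrp1 and Des in each of the 12 libraries, by genotype, with filled circles for replicates 1 and 2, open triangles for replicates 3 and 4 and a line at the mean of 4 replicates. VAMP7KO stands above the other genotypes for Acta2 (45.1 to 109.4 CPM) and Csrp1 (375.3 to 535.1 CPM), and ATG5KO for Des (60.6 to 70.5 CPM).

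Acta2 and Actg2 encode nearly identical proteins, and short reads from stretches that the genes share cannot always be given to 1 of them, so that the split between them is uncertain. The sum of both does not depend on how the counted reads were split, but it misses any shared reads that were counted for neither gene. Whether such reads were dropped is not stated in the sources used here. The sum was 80.8 ± 39.6 CPM in VAMP7KO, 9.99 ± 4.27 CPM in WT and 9.20 ± 2.22 CPM in ATG5KO (SD, n = 4), so that VAMP7KO stood at 8.09-fold the WT level. Actg2 took 1.72% to 3.64% of the summed reads in replicates 1 and 2 of all genotypes, and 6.53% to 12.0% in replicates 3 and 4. The share was thus higher in replicates 3 and 4 of every genotype, whatever the level of the sum. In VAMP7KO, where the reads were most, it went from 1.72% (95% Wilson interval 1.17% to 2.53%) and 2.06% (1.35% to 3.14%) in replicates 1 and 2 to 10.02% (8.98% to 11.2%) and 12.0% (10.9% to 13.2%) in replicates 3 and 4. In WT and ATG5KO the lowest count of Actg2 was 4, and the intervals, which cover counting error only, were wider.

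**Figure D2:**
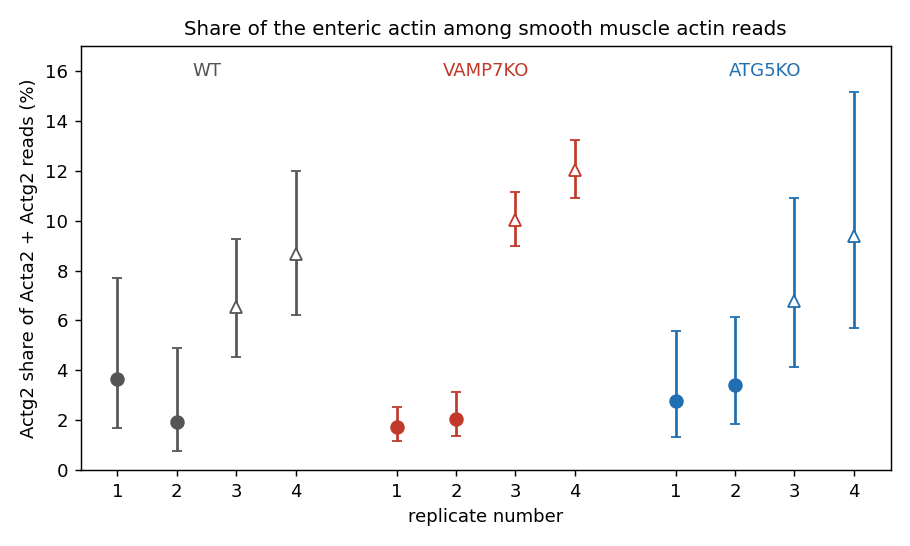
Share of Actg2 in the summed Acta2 and Actg2 reads (vertical axis, percent) of each library, by genotype and replicate number, with bars for the 95% Wilson interval. Replicates 1 and 2 (circles) lie at 1.72% to 3.64% and replicates 3 and 4 (triangles) at 6.53% to 12.0%.

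Csrp1 was the member with the smallest fold change between VAMP7KO and WT, and its coefficient of variation was the smallest of the 4 in WT (3.0%), VAMP7KO (16.9%) and ATG5KO (5.35%). It stood at 264.8, 284.2, 278.9 and 278.4 CPM in WT replicates 1 to 4, and at 396.2, 375.3, 488.7 and 535.1 CPM in VAMP7KO. In ATG5KO it stood at 266.4, 291.3, 287.2 and 261.6 CPM. VAMP7KO did not overlap with either of the other genotypes, which overlapped with each other. The means were 448.8 ± 75.8 CPM in VAMP7KO, 276.6 ± 8.29 CPM in WT and 276.6 ± 14.8 CPM in ATG5KO (SD, n = 4). VAMP7KO was thus at 1.62-fold the WT level, a fitted log2 fold change of 0.69 (standard error 0.0996). Over all genes tested, 15.5% did not overlap between VAMP7KO and WT, 6.8% with VAMP7KO higher, and 28.4% did not between VAMP7KO and ATG5KO.

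The Csrp1 ratio of VAMP7KO to WT was 1.41 in replicates 1 and 2 and 1.84 in replicates 3 and 4. This difference, 0.39 on the log2 scale, passed the test (adjusted p = 0.0183, edgeR quasi-likelihood, Benjamini-Hochberg) but was lost in 4 of the 12 fits that left out 1 library each, namely WT replicate 2, 3 or 4 or VAMP7KO replicate 4 (adjusted p up to 0.0908). It came with a higher level in VAMP7KO replicates 3 and 4, by 0.41 on the log2 scale (adjusted p = 0.000172, same edgeR test), while the set made a difference of 0.02 in WT (adjusted p = 0.821) and -0.02 in ATG5KO (adjusted p = 0.819). Between ATG5KO and WT the log2 fold change was 0.00, with a 95% confidence interval of -0.22 to 0.22 (adjusted p = 0.993, edgeR quasi-likelihood, Benjamini-Hochberg), and the difference of that effect between the sets was -0.05 (adjusted p = 0.794).

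Des had the opposite pattern, with by far its highest level in ATG5KO. WT replicates 1 to 4 stood at 3.99, 4.09, 1.48 and 1.61 CPM, from 118, 118, 45 and 45 counts. VAMP7KO stood at 1.0, 0.769, 1.19 and 1.48 CPM, from 30, 17, 33 and 36 counts. ATG5KO stood at 69.5, 70.5, 60.6 and 66.7 CPM, with at least 1447 counts in each library. Every ATG5KO library was above all others, where 28.2% of all genes tested did not overlap between ATG5KO and WT and 28.4% did not between VAMP7KO and ATG5KO. VAMP7KO overlapped with WT because WT replicate 3 came just inside its range, while WT replicate 4 stayed above it. The means were 66.8 ± 4.45 CPM in ATG5KO, 2.79 ± 1.44 CPM in WT and 1.11 ± 0.301 CPM in VAMP7KO (SD, n = 4), with fitted log2 fold changes of 4.63 (standard error 0.289) for ATG5KO over WT and -1.26 (standard error 0.339) for VAMP7KO over WT.

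Both knockout effects on Des depended on the set. VAMP7KO was 4.56-fold below WT in replicates 1 and 2, with no overlap, and 1.15-fold below it in replicates 3 and 4, where the ranges overlapped narrowly. This change of the effect was 1.94 on the log2 scale (adjusted p = 0.000133, edgeR quasi-likelihood, Benjamini-Hochberg). ATG5KO was 17.3-fold above WT in replicates 1 and 2 and 41.3-fold in replicates 3 and 4, a change of 1.25 on the log2 scale (adjusted p = 8.43e-05, same test). Des was lower in WT replicates 3 and 4 by a log2 difference of -1.39 (adjusted p = 1.08e-06), and the set made no called difference in VAMP7KO (0.56, adjusted p = 0.0687) or in ATG5KO (-0.14, adjusted p = 0.212), by the same edgeR test.

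**Figure D3:**
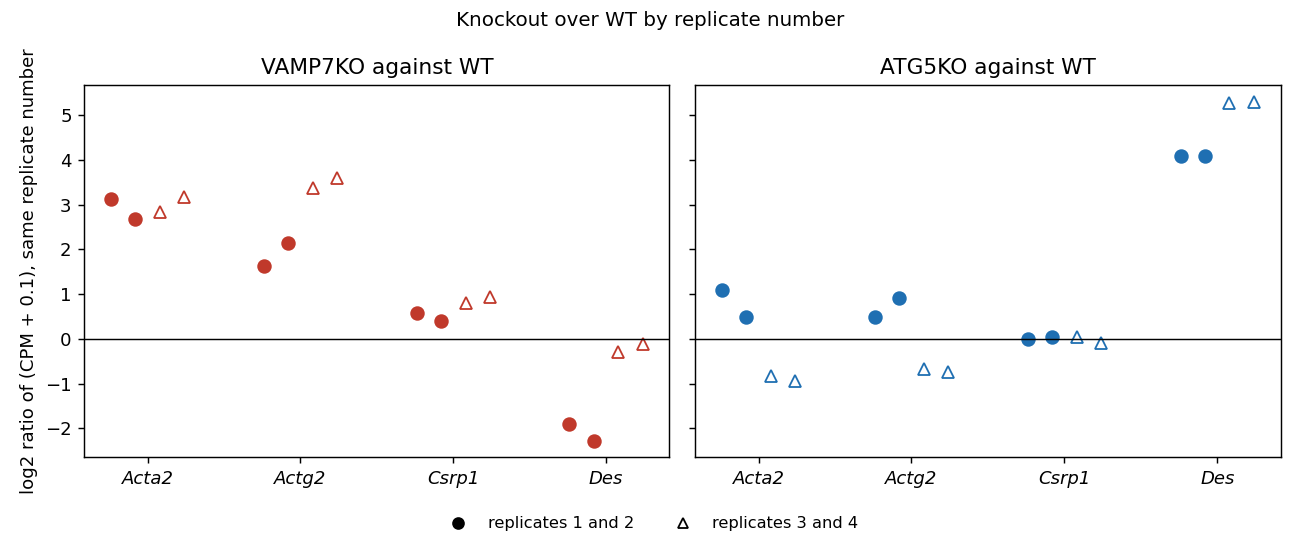
Log2 ratio of each knockout to WT for libraries of equal replicate number (vertical axis, log2 of CPM + 0.1), for each gene, with circles for replicates 1 and 2 and triangles for replicates 3 and 4. In the ATG5KO panel the circles of Acta2 and Actg2 lie above 0 and the triangles below it, and in the VAMP7KO panel the triangles of Des lie near 0.

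Across the 12 libraries, the log2 levels of Acta2 and Csrp1 had a Pearson correlation of 0.962, those of Acta2 and Actg2 0.857 and those of Actg2 and Csrp1 0.869. Des had correlations of -0.63 with Acta2, -0.47 with Actg2 and -0.58 with Csrp1. The points share genotypes, replicate sets and libraries, so that these values describe the layout of the 12 libraries. The ranges of VAMP7KO and ATG5KO did not overlap for any member, where 28.4% of all genes tested did not overlap. The fitted log2 difference of VAMP7KO over ATG5KO was 2.94 for Acta2, 3.31 for Actg2, 0.69 for Csrp1 and -5.89 for Des, where 44.9% of all genes tested were called.

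Among 1310 genes with a known symbol and a mean of at least 1 CPM, the most alike to Acta2 over the 12 libraries were Lima1 (Pearson r = 0.987), which encodes the actin-bundling protein EPLIN, Vegfd (0.965), which encodes a lymphatic growth factor, and Csrp1. Lima1 stood at 369.2 ± 45.4 CPM in VAMP7KO, 203.0 ± 24.6 CPM in WT and 200.3 ± 25.8 CPM in ATG5KO (SD, n = 4). The same genes led for Csrp1, with Acta2 at 0.962, Lima1 at 0.943 and Vegfd at 0.941. For Actg2 they were Nlrp3 (0.977), the sensor of an inflammasome, Myh9l1 (0.957), a gene named as like the non-muscle myosin heavy chain Myh9, and the chemokine-scavenging receptor gene Ackr4 (0.948). For Des they included Efs (0.992), an adaptor of Src family kinases, and Lama4 (0.990), a laminin chain of muscle and vessel basement membranes. Lama4 stood at 34.3 ± 2.82 CPM in ATG5KO against 2.07 ± 0.656 CPM in WT and 1.41 ± 0.262 CPM in VAMP7KO. Since symbols were known only for genes listed as changed, the candidates are not a sample of all genes.

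The other genes of the contractile apparatus are described from lists of known genes, which also hold Acta2, Actg2, Csrp1 and Des. An identifier was known only where the study had listed the gene as changed in 1 of the knockouts, so that the counts over a list are no independent evidence. A gene tested below in 1 knockout had been listed for the other against the same WT libraries. Its p-value is thus not free of that choice. Defining smooth muscle genes such as Tagln, Cnn1 and Myh11 had no known identifier and were not analysed here. Of the thin filament list, 7 of 17 genes had an identifier and 6 passed the filter on low counts. The VAMP7KO list was read in full, but the ATG5KO list was read in full only for genes that rose, and for those that fell only down to a strong fall, so that a gene with a lower level in ATG5KO is not known to be unlisted there. All 6 thin filament genes, Acta2 and Actg2 among them, had been listed for VAMP7KO, so that their calls there follow from that choice. In VAMP7KO against WT, the 6 were called higher, with a median log2 fold change of 2.0 (1.70 with Lmod1 at the lower bound given below). Of all genes tested, 22.9% were called there (10.5% higher, 12.3% lower), with a median of 0.0037. In ATG5KO against WT, 3 were called higher and 3 were not called, with a median of 0.30, where 23.6% of all genes tested were called higher and 22.7% lower.

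The tropomyosins, which lie along the actin filament, had been listed for VAMP7KO, and Tpm1 and Tpm2 not for ATG5KO. Tpm1 stood at 224 ± 98.9 CPM in WT, 454 ± 177 CPM in VAMP7KO and 309.7 ± 39.2 CPM in ATG5KO (SD, n = 4). Tpm2 stood at 223 ± 86.9, 384 ± 42.1 and 436 ± 70.8 CPM, in the same order. In ATG5KO, Tpm1 and Tpm2 rose by 0.58 and 1.02 on the log2 scale (adjusted p = 0.0114 and 0.000347, edgeR quasi-likelihood, Benjamini-Hochberg), while Tpm4 differed by -0.23 (adjusted p = 0.211) and, without ATG5KO replicate 2, by -0.38 (adjusted p = 0.0356). The ATG5KO effect depended on the set. For Tpm1 it was 0.98 in replicates 1 and 2 and 0.15 in replicates 3 and 4 (interaction -0.85, adjusted p = 2.08e-05, same edgeR test). Tpm2 had the reverse order, 0.72 and 1.34 (interaction 0.60, adjusted p = 0.000543, same edgeR test). For Tpm4 these values were 0.0267 and -0.54, and replicates 3 and 4 alone passed the test (adjusted p = 4.67e-12, interaction -0.59, adjusted p = 0.00112). Lmod1, which encodes the leiomodin that nucleates actin in smooth muscle, was at or under 3 counts in all WT libraries. It had 0.559 ± 0.408 CPM in VAMP7KO and 11.8 ± 7.19 CPM in ATG5KO, at least 5.16-fold and at least 109-fold higher than WT when each WT library was set to a floor of 3 counts, a bound for counting error only.

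Of the myosin list, 2 of 11 genes had an identifier. Mylk, the kinase that phosphorylates the myosin light chain, had not been listed for VAMP7KO and stood at 1.32 ± 0.968 CPM in WT, 3.04 ± 1.11 CPM in VAMP7KO and 15.7 ± 10.3 CPM in ATG5KO (SD, n = 4). Its log2 fold change in VAMP7KO was 1.37 (adjusted p = 0.00704, edgeR quasi-likelihood, Benjamini-Hochberg). Myh10, a non-muscle myosin heavy chain, had not been listed for ATG5KO and rose there by 0.34 on the log2 scale (adjusted p = 0.0211 by the same test), a call that was lost without WT replicate 1 or 2 or ATG5KO replicate 3 or 4 (adjusted p up to 0.0844), without the replicate block (adjusted p = 0.342) and with replicates summed within each set (adjusted p = 0.211). Of the non-muscle actins, the cytoplasmic γ-actin gene Actg1 was read at only 7.78 ± 2.48 CPM in WT, a low level for a gene that most cells use heavily. The cause was not tested.

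Of the list of intermediate filament, dense plaque and Z-disc genes, 14 of 37 had an identifier and 13 passed the filter. The 13 include the members Csrp1 and Des, which were selected on the VAMP7KO contrast, Des also on the ATG5KO contrast. In VAMP7KO 7 were called higher, 1 lower and 5 were not called, with a median log2 fold change of 0.54. The 1 called lower was Des, and of the called genes only Sorbs3 had not been listed for VAMP7KO. Of all genes tested, 10.5% were called higher there and 12.3% lower. In ATG5KO 11 were called higher, 1 lower and 1 was not called, with a median of 1.40, where 23.6% of all genes tested were called higher and 22.7% lower and their median was 0.0078. Fhl1 and Csrp1 encode LIM proteins, and Fhl1 stood at 1253 ± 196 CPM in VAMP7KO, 127 ± 68.8 CPM in WT and 418 ± 234 CPM in ATG5KO (SD, n = 4). Both effects on Fhl1 were smaller in replicates 3 and 4, with a log2 difference of -1.85 for VAMP7KO and -2.98 for ATG5KO (adjusted p = 2.88e-09 and 1.55e-11, edgeR quasi-likelihood, Benjamini-Hochberg). Ankrd1, a muscle ankyrin repeat gene and a known YAP target, stood at 35.6 ± 8.40 CPM in VAMP7KO, 5.15 ± 1.72 CPM in WT and 13 ± 3.24 CPM in ATG5KO. Synpo2, an actin-bundling protein of the Z-disc, was like Des highest in ATG5KO, at 39.6 ± 11.1 CPM in ATG5KO against 1.33 ± 0.393 CPM in WT and 1.58 ± 0.266 CPM in VAMP7KO.

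Genes of this list that had not been listed for VAMP7KO could be tested there, although the choice leaves out the genes that changed most. They had been listed for ATG5KO against the same WT libraries, so that the tests are not free of that choice. The genes tested included Synpo2, Pdlim2, Flnc, Sorbs3 and Hspb7, of which 1 was called. Sorbs3, the vinculin-binding vinexin, rose by 0.54 on the log2 scale (adjusted p = 0.00076, edgeR quasi-likelihood, Benjamini-Hochberg), from 39.99 ± 0.749 to 58.3 ± 1.47 CPM. Flnc, the muscle filamin, differed by 0.44 on that scale (adjusted p = 0.0505, same test). It was called under 13 of 21 alternatives, among them DESeq2 (adjusted p = 0.0148) and the fits without any 1 of the ATG5KO libraries, VAMP7KO replicate 2 or WT replicate 3, and was not called without the replicate block (adjusted p = 0.677) or with summed replicates (adjusted p = 0.326). Itga8, an integrin of smooth muscle and mesangial cells, stood at 1.59 ± 0.528 CPM in WT, 13.7 ± 5.12 CPM in VAMP7KO and 0.586 ± 0.294 CPM in ATG5KO, a description with no test. Like Acta2, it was highest in VAMP7KO.

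**Figure D4:**
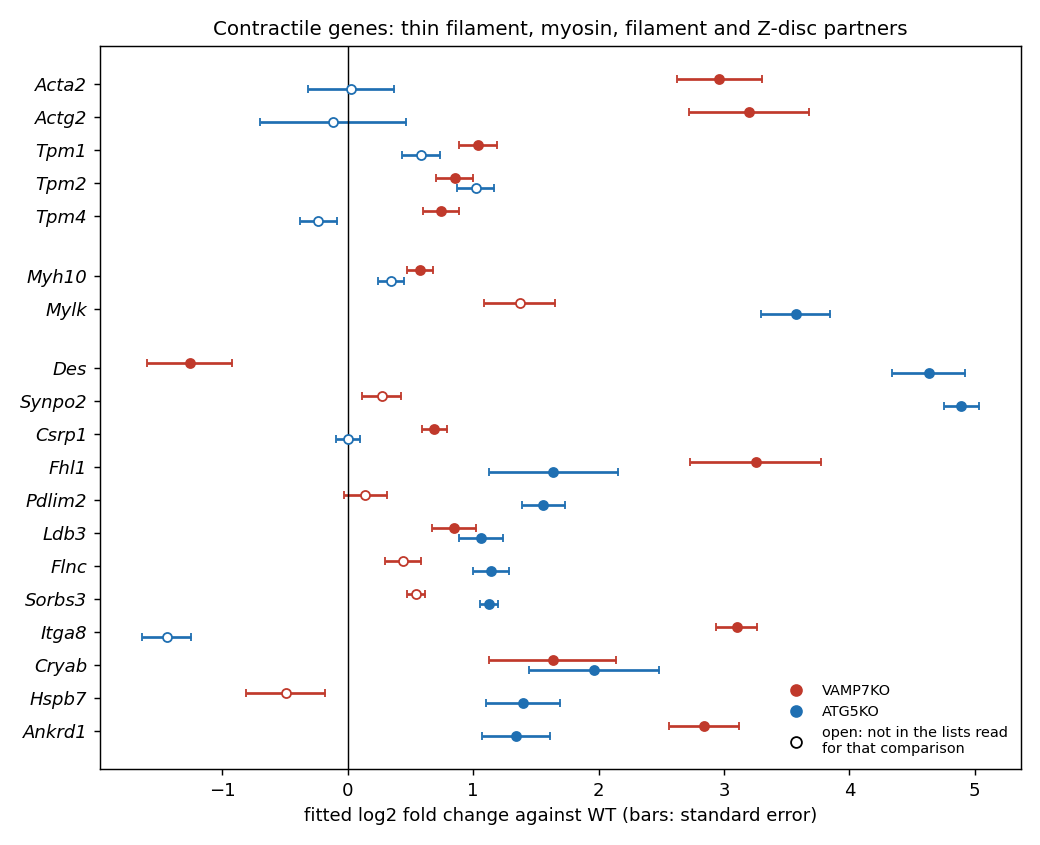
Fitted log2 fold change against WT (horizontal axis, bars for the standard error) of 19 list genes with a mean of at least 1 CPM and counts above the floor in WT, in VAMP7KO and in ATG5KO, with open points for genes not found in the parts of the study's lists that were read for that comparison. Acta2, Actg2, Fhl1, Itga8 and Ankrd1 lie between 2.84 and 3.25 in VAMP7KO, and Des and Synpo2 at 4.63 and 4.89 in ATG5KO.

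Of 25 regulators of smooth muscle transcription, 8 had an identifier, Srf and the myocardin-related factors not among them, and 7 passed the filter. In VAMP7KO 2 were called higher, 4 lower and 1 was not called, and in ATG5KO 4 were called higher and 3 lower, against 10.5% higher and 12.3% lower of all genes tested in VAMP7KO and 23.6% and 22.7% in ATG5KO. Klf5 stood at 9.91 ± 0.650 CPM in WT, 21.4 ± 5.03 CPM in VAMP7KO and 21.6 ± 1.44 CPM in ATG5KO (SD, n = 4), and Yap1, the coactivator of TEAD factors, at 468 ± 18.8, 281 ± 13.7 and 264 ± 17.3 CPM. Hey2, a Notch target, stood at 18.2 ± 5.77 CPM in WT, 48.3 ± 31.8 CPM in VAMP7KO and 10.9 ± 6.97 CPM in ATG5KO. Egr1, an early response gene and a target of SRF, stood at 77.2 ± 28.2 CPM in WT, 36.5 ± 23.6 CPM in VAMP7KO and 10.1 ± 1.09 CPM in ATG5KO. The log2 differences of ATG5KO from WT were -0.82 for Yap1, -0.94 for Hey2 and -2.83 for Egr1, given with no test because such falls may stand in the unread part of the list. Myocardin itself, Myocd, is chosen here after its values were seen, since its mean is under 1 CPM. It stood at 1.48 ± 0.328 CPM in ATG5KO, was at or under 3 counts in all VAMP7KO libraries and in 2 of 4 WT libraries, and its highest count was 50.

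Of 25 TGF-β and PDGF signals and matricellular targets, 9 had an identifier. In VAMP7KO 6 were called higher and 3 were not called, and in ATG5KO 5 were called higher, 1 lower and 3 were not called, where 22.9% of all genes tested were called in VAMP7KO and 46.3% in ATG5KO. Ccn2, which encodes connective tissue growth factor, stood at 679 ± 131 CPM in VAMP7KO, 164 ± 18.9 CPM in WT and 166 ± 5.21 CPM in ATG5KO (SD, n = 4). For ATG5KO, Ccn1, Ccn2 and Ltbp2 were not in the part of the list that was read, and their log2 fold changes there were -0.14, 0.02 and -0.26 (adjusted p = 0.71, 0.926 and 0.533, edgeR quasi-likelihood, Benjamini-Hochberg). Like Acta2, Ccn1 had opposite signs in the sets, with a log2 fold change of 0.64 in replicates 1 and 2 against -0.96 in replicates 3 and 4 (interaction -1.62, adjusted p = 7.31e-07, same edgeR test). Ltbp2, a matrix gene named after the latent TGF-β binding protein family, had the reverse order, -1.18 and 0.71 (interaction 1.87, adjusted p = 6.69e-09, same edgeR test). Thbs1, which encodes a thrombospondin that activates TGF-β, was high in both knockouts, at 2102 ± 86.4 CPM in VAMP7KO and 2867 ± 1034 CPM in ATG5KO against 492 ± 276 CPM in WT. Tgfb2 stood at 8.09 ± 0.750 CPM in WT, 13.6 ± 0.701 CPM in VAMP7KO and 18.2 ± 6.69 CPM in ATG5KO.

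Some markers of other cell types also differed between the genotypes, not all in the same direction. Those with an identifier had been listed as changed. In bulk RNA, a larger share of cells of a type cannot be told apart from more RNA per cell. Of 53 skeletal and cardiac muscle genes, 20 had an identifier and 19 passed the filter. In ATG5KO 15 were called higher and 3 lower, and in VAMP7KO 5 were called higher and 5 lower. Of all genes tested, 23.6% were called higher and 22.7% lower in ATG5KO, and 10.5% and 12.3% in VAMP7KO. Their summed level was 61.4 to 114.1 CPM in WT, 115.3 to 334.5 CPM in VAMP7KO and 155.3 to 452.9 CPM in ATG5KO. Myod1, the myogenic master regulator, stood at 18.9 ± 4.41 CPM in ATG5KO and 0.300 ± 0.0600 CPM in WT (SD, n = 4), and had no count in any VAMP7KO library. Musk, the receptor kinase of the neuromuscular junction, stood at 11.9 ± 3.81 CPM in ATG5KO and was at or under 3 counts in 2 of 4 WT and 3 of 4 VAMP7KO libraries. Both were thus highest in ATG5KO, as Des was. Other genes of the list did not follow Des. Neb, which encodes nebulin, stood at 14.8 ± 6.54 CPM in WT, 57.4 ± 32.6 CPM in VAMP7KO and 42.1 ± 20.6 CPM in ATG5KO, and Myom2, which encodes an M-band protein, at 3.49 ± 3.54, 29.9 ± 18.4 and 24.2 ± 21.8 CPM, in the same order. Dmd, which encodes dystrophin, stood at 4.44 ± 0.846, 4.24 ± 0.341 and 0.0559 ± 0.0450 CPM, and Ryr1, the calcium release channel of skeletal muscle, at 5.15 ± 2.35, 0.0627 ± 0.0976 and 0.368 ± 0.114 CPM. The part of such cells in the level of Des was not tested.

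Of 19 pericyte and fibroblast genes, 10 had an identifier and 9 passed the filter, with 6 called higher, 2 lower and 1 not called in each knockout, where 22.9% of all genes tested were called in VAMP7KO and 46.3% in ATG5KO. Their summed level was 581.9 to 1577 CPM in WT, 1164 to 3756 CPM in VAMP7KO and 2215 to 4038 CPM in ATG5KO. Abcc9, a pericyte potassium channel subunit, stood at 246 ± 207 CPM in VAMP7KO, 15.9 ± 12.5 CPM in WT and 0.125 ± 0.174 CPM in ATG5KO. Lum and Col3a1 are genes of the fibroblast matrix. Lum stood at 168 ± 141 CPM in VAMP7KO, 68.8 ± 59.7 CPM in ATG5KO and 3.74 ± 2.56 CPM in WT, and Col3a1 at 761 ± 646, 796 ± 266 and 116 ± 67.9 CPM, in the same order. The 2 genes called lower in VAMP7KO were Anpep and Pdpn. Anpep had a mean of 5.81 CPM in VAMP7KO, 31.6 CPM in WT and 23.6 CPM in ATG5KO. Pdpn had no count in VAMP7KO, and means of 0.103 CPM in WT and 34.6 CPM in ATG5KO. It was at or under 3 counts in 3 of 4 WT libraries. Thy1, not called in VAMP7KO, had means of 0.113 CPM there, 0.334 CPM in WT and 143 CPM in ATG5KO. Of 23 epithelial genes, 6 had an identifier, Cdh1 and Epcam not among them. In VAMP7KO 5 were called lower and 1 was not called, and in ATG5KO 1 was called higher, 2 lower and 3 were not called, where 12.3% and 22.7% of all genes tested were called lower. Their summed level was 462.7 to 573.5 CPM against 827.8 to 1207 CPM in WT and 569.2 to 815.8 CPM in ATG5KO. The water channel gene Aqp1 was at 248 ± 107 CPM in WT, 5.77 ± 5.03 CPM in VAMP7KO and 19.7 ± 15.9 CPM in ATG5KO, and Krt14, a basal cell keratin, at 7.43 ± 6.97, 0.479 ± 0.521 and 4.39 ± 5.19 CPM. Krt8 was at 777 ± 107 CPM in WT, 503 ± 55.6 CPM in VAMP7KO and 688 ± 105 CPM in ATG5KO, so that an epithelial keratin was read in all genotypes beside the muscle and fibroblast genes. The part of these cell types in the levels of Acta2, Actg2 and Csrp1 was not tested.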

How the data were processed

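RNA-seq counts of 12 NRK libraries were analysed, 4 of each genotype. The authors trimmed reads with cutadapt, removed rRNA reads with bowtie, mapped the rest to the rat assembly with STAR and counted them per Ensembl gene with htseq-count. The deposited values are these read counts, 1 library per column and not normalized. A separator missing from the header was restored by position. Symbols come only from the lists of changed genes published with the study, of which that of ATG5KO was read in full for rising and in part for falling genes, and cover 1976 of the 20842 genes. Those lists also hold the authors' fold changes and p-values, which were not used. The Ensembl identifiers could not be matched to the RefSeq tables, which supplied promoter windows by symbol.

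Genes were tested with the quasi-likelihood F statistic of edgeR 4.0.16 (R 4.3.3, limma 3.58.1) after TMM normalization. filterByExpr kept 13141 genes. All 12 libraries entered 1 fit, blocked by replicate number, and the Benjamini-Hochberg adjustment ran over all genes tested. A gene was called at an adjusted p under 0.05. The standard error is the log2 fold change over the square root of F. The study adjusted for a batch it did not name, and the replicate number was the label at hand. Deviations from the genotype mean correlated at 0.571 to 0.691 between libraries of equal number, and at 0.536 to 0.689 between libraries of the same set and other number, so that the pairing is no closer than the set. Differences between sets came from a fit of genotype by set without the block. No libraries of a genotype agreed within counting noise, but those of 1 set were far closer to each other than to the other set. Against counting noise, the chi-square per degree of freedom was 3.10 to 25.6 within a set and 126 to 239 between sets. Tests within or between sets treat the 2 dishes of a set as its replicates. Replicates are separate dishes, which the study calls independent. The test was run on simulated data first.

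Log2 levels used a pseudocount of 0.1 CPM. The members and gene lists were chosen with earlier results of these data known. Genes named are the members, Vamp7, list genes averaging 1 CPM or more across libraries, and the 3 genes most alike to each member by Pearson correlation, of which some are not reported here. Alternatives were DESeq2 (1.42.0) by its Wald test, its size factors within edgeR, no filter beyond 1 count, other blocks, subsets of libraries, summed replicates and each library left out in turn. Their use on the named list genes was chosen after seeing the data. Levels, intervals and plots were computed in Python 3.11.15 with scipy 1.17.1, numpy 2.4.6, pandas 2.3.3 and matplotlib 3.10.9.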

Additional observations from a re-analysis of the deposited data

Results flagged for a closer look

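The effect of a knockout differed between replicates 1 and 2 and replicates 3 and 4, by a test of the difference itself, for 4 of the 8 combinations of gene and knockout tested, 2 in VAMP7KO, where 16.5% of all genes tested had such a difference, and 2 in ATG5KO, where 28.9% had one. For Acta2 in ATG5KO the difference was -1.66 on the log2 scale, with the knockout above WT in replicates 1 and 2 and below it in replicates 3 and 4. For Des it was 1.25 in ATG5KO and 1.94 in VAMP7KO, beside a WT level that was itself lower in replicates 3 and 4. For Csrp1 in VAMP7KO it was 0.39, and this call was lost when WT replicate 2, 3 or 4 or VAMP7KO replicate 4 was left out. What separates the sets is not stated in the sources used here, and its part in these differences was not tested. In none of the 12 groups of 4 libraries did a single library stand apart by Dixon's test at the 95% level. Where a group splits by set into 2 and 2 libraries, this test can hardly flag a single library.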

How the results depend on the processing

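The 4 members gave 40 results with the counts of called genes, and 715 values under alternatives, of which 651 kept their direction and side of the threshold or moved by less than the replicate spread. That spread holds the difference between the sets, so that Des in VAMP7KO against WT counted as kept at -2.17 in replicates 1 and 2 and at -0.21 in replicates 3 and 4. The direction reversed for 11 values under other settings and for 32 with 1 library left out. Without the replicate block, the number of genes called fell from 3004 to 1024 for VAMP7KO against WT, from 6081 to 3102 for ATG5KO against WT and from 5903 to 2997 for VAMP7KO against ATG5KO. With replicates summed within each set, which leaves fewer samples, it was 246, 2101 and 1976, and with replicates 3 and 4 only it was 5283 for VAMP7KO against WT. For ATG5KO against WT, Acta2 had log2 fold changes of -0.10 without the replicate block, -0.0775 with only those genotypes, 0.76 in replicates 1 and 2 and -0.88 in replicates 3 and 4. Actg2 had 0.12 by DESeq2, 0.94 in replicates 1 and 2 and 0.0603 with summed replicates, Csrp1 had -0.00808 with every gene, -0.0227 with only those genotypes and -0.0200 in replicates 3 and 4, and Des had 5.36 in replicates 3 and 4. Actg2 in VAMP7KO against ATG5KO was 1.40 in replicates 1 and 2. With the replicate block, the change of the ATG5KO effect on Actg2 was -1.75 (adjusted p = 0.0486 by edgeR) and the difference of Csrp1 between sets in ATG5KO was 0.00343, and with every gene that of Csrp1 in WT was -0.00367. The block changed no other call of a member. The cause of these changes was not tested.

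Leaving out 1 library at a time gave 1923 to 3224 called genes for VAMP7KO against WT (1954 without WT replicate 1, 1923 without VAMP7KO replicate 1) and 1312 to 2722 for the change of the VAMP7KO effect between sets. It gave 2.72 to 3.12 for Acta2 in VAMP7KO against WT. In ATG5KO against WT it gave -0.33 to 0.33 for Acta2, -0.54 to 0.40 for Actg2 and -0.0494 to 0.075 for Csrp1. The change of effect between sets ranged from -0.11 to 0.26 for Acta2 and 0.32 to 0.46 for Csrp1 in VAMP7KO, and from -0.11 to 0.0321 for Csrp1 in ATG5KO, and the difference of Csrp1 between sets from -0.0187 to 0.0712 in WT and -0.082 to 0.0569 in ATG5KO.

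Of the list genes tested in ATG5KO, Tpm4 had 0.0267 in replicates 1 and 2 and -0.54 in replicates 3 and 4, where it was called, Ccn2 had -0.0767 in replicates 3 and 4, Ccn1 had 0.64 in replicates 1 and 2 and Ltbp2 had 0.71 in replicates 3 and 4. Leaving out 1 library gave -0.38 to 0.10 for Ccn1, -0.53 to 0.0304 for Ltbp2 and -0.0561 to 0.12 for Ccn2. The call of Tpm2 held under all 21 alternatives. Those of Tpm1, Myh10, Mylk and Sorbs3 were lost with summed replicates, and all but Sorbs3 also without the replicate block, that of Tpm1 also with only those genotypes. Counts of 4 to 32 for Actg2 in WT limit its folds.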
